A study of Mus musculus with 3 samples.

Results

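The cells described here are 151 matrix-producing fibroblasts among 22534 analysed cells of the mouse small intestine. They were chosen on measured values. A member had at least 20 unique molecular identifiers (UMIs, tags that count captured transcripts) of the matrix genes Dcn, Col1a1 and Col3a1 together. It also had at most 1 UMI of Wnt5a, at most 2 of Myh11 and at most 2 of Rgs5, and none of Prox1, Ptprc and Epcam. These limits were set against Wnt5a-positive stromal cells, muscle and pericytes, lymphatic endothelium, leukocytes and epithelium. They act on few UMIs per cell, so such cells with low counts of these genes can still pass. Because the rule used the 9 genes, their levels are given without a test.

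The study measured single-cell RNA in 3 libraries that form 1 group. Each library was a pool of 4 wild-type females of 9 to 10 weeks, of a strain the labels spell C57Bl/6 or C57B/6, and no treatment or engineered allele is stated. The intestine without the duodenum was stripped of epithelium with EDTA and DTT and digested for 60 min at 37 °C with Liberase TL and DNase I. Live cells without CD45 and with CD31 and podoplanin (PDPN) were sorted to enrich endothelium, so shares below are shares of sorted cells and not of the tissue.

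Fibroblasts of the gut wall secrete the collagens, proteoglycans and elastic fibres that hold the mucosa and submucosa together. They also set the signals around the crypts: BMP ligands drive epithelial cells toward differentiation, while WNT ligands, R-spondins and BMP antagonists such as gremlin 1 hold stem cells in cycle. Adamdec1 marks fibroblasts of the lamina propria, the layer under the epithelium. CD81-positive fibroblasts that make Grem1, and adventitial fibroblasts that make Pi16 and Clec3b, are known from deeper layers and from around vessels.

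The 3 libraries held 18, 79 and 54 fibroblasts. That is 0.283% (95% exact binomial interval 0.168 to 0.447), 1.18% (0.934 to 1.47) and 0.570% (0.429 to 0.744) of the analysed cells, with a mean of 0.677% ± 0.457 (SD, n = 3). The intervals do not overlap between library 2 and the others and overlap narrowly between libraries 1 and 3. Intervals cover counting error only. Median depth was 9288.5, 8234 and 7802 UMIs per fibroblast, with a median of 2791 genes over the 151 cells. Libraries held 58857545 to 74571090 UMIs in 6931 to 9932 barcodes. Pairs of libraries shared 14, 13 and 23 barcodes, none of them a fibroblast's. The summed profiles of the fibroblasts differed between each pair of libraries by more than the counting noise of UMIs, with a chi-square per degree of freedom of 5.75, 5.58 and 2.98. This value treats UMIs as independent, so variation between cells also raises it. A difference between libraries beyond the sampling of few cells was not tested. The nuclear transcript Malat1 made up 3.21% of fibroblast UMIs in library 1 and 1.73% and 1.74% in the others.

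Members had 20 to 793 UMIs of the 3 matrix genes, with a median of 105. Levels are given below as CPM, the UMIs of a gene per 1000000 UMIs of the summed cells, which count molecules and are not divided by gene length. The 5 cells just inside the limit, with 20 to 24 such UMIs, had a median of 4329 UMIs and pooled levels of 2055 CPM for Adamdec1, 0 for Mgp and 1007 for Pdgfra. The 7 cells just outside it, with 15 to 19, had a median of 4348 UMIs and levels of 1657, 245 and 625.

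The label was checked on the 2 marker genes that the rule did not use. Fbln1, the matrix glycoprotein fibulin 1, had a UMI in 85 of 151 cells (56.3%), and Mgp, the calcification inhibitor matrix Gla protein, in 55 (36.4%). So the label's matrix genes hold by construction, Fbln1 in most cells and Mgp in a minority. Mgp was found in 3, 33 and 19 cells of the 3 libraries. Its level was 181.5, 3534 and 2024 CPM, and that of Fbln1 was 187.5, 1324 and 1030, so both were low in the fibroblasts of library 1. Adamdec1, a disintegrin-like metalloprotease, had a UMI in 136 cells, Pdgfra, the receptor that marks gut mesenchyme, in 119, and Clec3b, the plasminogen-binding protein tetranectin, in 125.

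The sort's own markers were looked up too. Pdpn had a UMI in 117 fibroblasts (77.5%), and its level was 235.9, 212.6 and 202.4 CPM in the fibroblasts against 260.8, 256.1 and 243.3 in lymphatic endothelial cells. Pecam1, which encodes CD31, had a UMI in 6 fibroblasts (3.97%), and its level was 6.05 to 11.6 CPM against a mean of 548.6 in lymphatic endothelial cells. The fibroblasts thus carried the sort's podoplanin transcript and nearly no transcript of its CD31. After thinning to 3000 UMIs per cell the shares with a Pecam1 UMI were 3.4% of fibroblasts and 81.4% of lymphatic endothelial cells.

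Markers of other cell types were low. The 8 pan-endothelial markers summed to 327 to 472 CPM in fibroblasts and 4320 to 4550 in lymphatic endothelial cells. The 11 lymphatic markers other than Prox1 summed to 522 to 1008 against 22206 to 25001, with Mmrn1 and Nts at 0. The 12 blood endothelial markers summed to 295 to 508, with none at 0. Myeloid markers other than the excluded gene summed to 6.05 to 22.997, with Adgre1, Tyrobp and Itgam at 0. T-cell and innate lymphoid markers summed to 143 to 169, with 8 of 11 at 0, B-cell and plasma cell markers to 218 to 395, with 3 of 10 at 0, and Kit of the Cajal cell list was at 0. Epithelial markers summed to 42.3 to 362, and contractile and mural markers to 762 to 1178 against 21153 to 37998 in the mural cells themselves. A single cell of library 1 held 10 UMIs of S100b and 4 of Cdh19, genes known from glia, with no Dcn UMI.

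Among genes that are not mitochondrial, ribosomal or housekeeping, and leaving aside the non-coding ones, Adamdec1 had the highest mean level, 8366 ± 2547 CPM (SD, n = 3), with 11305, 6799 and 6993 in the libraries. Dcn, the collagen-binding proteoglycan decorin, followed with 4452, 9876 and 8272, then Col3a1 with 6146, 6194 and 6398. Sparc, a collagen-binding matrix protein, had 4984, 5717 and 4951. Library 1 was highest for Adamdec1 and lowest for Dcn, while Col3a1 varied little. Igfbp7, an insulin-like growth factor binding protein, averaged 3722, Col1a1 3183, the actin-severing protein Gsn 3083, Col1a2 3058 and the proteoglycan biglycan (Bgn) 2613. The non-coding Gm42418 and Malat1 stood above all of these, and Gm42418 made up 5.82% to 9.24% of fibroblast UMIs.

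The collagen genes were read in nearly every cell. Col6a1, a chain of the beaded-filament collagen VI, had a UMI in all 151 cells and Col1a2 in 150. Type I collagen is made of chains from Col1a1 and Col1a2, and the UMI ratio of Col1a1 to Col1a2 was 1.22, 0.984 and 0.979 in the libraries. Over the 151 cells the levels of these genes had a Pearson correlation of 0.78, and Col6a1 and Col6a2 one of 0.52. These correlations describe cells that share libraries and depth. The upstream sequences of Col1a2 and Col3a1 are shown because both are fibrillar collagen genes among the 30 genes with the highest mean level in these cells. They are the 120 bases before the annotated start of Col1a2 (chr6:4505498-4505617, plus strand) and of Col3a1 (chr1:45311418-45311537, plus strand), from RefSeq on GRCm38.p6. Capitals mark a CCAAT box in Col1a2, whose first base lies 109 bases before the start, and TATAAA in Col3a1, 117 before it. GENCODE vM21 starts Col1a2 further upstream, at 4504814, so the window shown lies inside that gene model, while both annotations give the same start for Col3a1.
Col1a2: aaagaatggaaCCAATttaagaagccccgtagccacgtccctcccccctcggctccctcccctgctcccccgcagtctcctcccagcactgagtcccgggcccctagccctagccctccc
Col3a1: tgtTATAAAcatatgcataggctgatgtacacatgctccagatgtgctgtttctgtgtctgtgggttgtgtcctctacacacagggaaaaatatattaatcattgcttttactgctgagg
On either strand, CCAAT was found in 21.3% and TATAAA in 6.34% of 32851 mouse windows of the same length. These matches describe letters and are not evidence of binding.

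Of the BMP and WNT ligands named here Bmp4, a BMP ligand, had the highest level, at 508.1, 535.2 and 637 CPM. Bmp5 had 211.7, 177.9 and 131.1, and Bmp2 66.5, 75.2 and 59.8. Wnt4, a WNT ligand, had 278.2, 214.1 and 347.3, and the secreted WNT antagonist Sfrp1 had 1083, 953.3 and 1205. These ligands and Sfrp1 were thus read in each of the 3 libraries. Grem1 had 0, 167.8 and 94.3, with no UMI in the fibroblasts of library 1. The rule left out 3 cells of library 1 that held 5, 54 and 15 Grem1 UMIs and 2 or 3 of Wnt5a. The R-spondin Rspo3, which strengthens WNT signals, had 48.4, 62.2 and 57.5, and Rspo1 and Rspo2 had UMIs in 4 and 10 cells.

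Chemokines were led by the eosinophil attractant Ccl11, at 1772, 1094 and 1391 CPM, and by Cxcl12, which retains leukocytes, at 1101, 980.8 and 784.2. Cxcl13, which draws B cells, had 266.1, 344.3 and 216.2, and 1 cell of library 2 supplied 47.1% of its UMIs. Both Ccl11 and Cxcl12 were highest in library 1. Some inflammatory chemokines came from few cells: 1 cell of library 2 supplied 40.7% of the fibroblasts' Ccl2, with 220 UMIs, and 1 cell of library 1 supplied 19.3% of their Cxcl9, with 94. The retinoic acid-forming dehydrogenase Aldh1a3 had 846.8, 329.8 and 600.2. Tcf21, a mesenchymal transcription factor, had 985.9, 522.2 and 522, and Nkx2-3, the gut mesenchyme homeobox factor, 689.6, 488.9 and 648.5.

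Several genes that went with Mgp across cells differed between libraries. Complement component C3 had 18.2, 1095 and 752 CPM, the surface sialomucin Cd34 72.6, 270.5 and 253, and the tetraspanin Cd81 18.2, 151.9 and 82.8. Library 1 was lowest for each of these genes. It contributed the fewest fibroblasts, 18. The limit on Wnt5a kept out 3 cells of library 1 with at least 2 Mgp UMIs, described below.

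**Figure D1:**
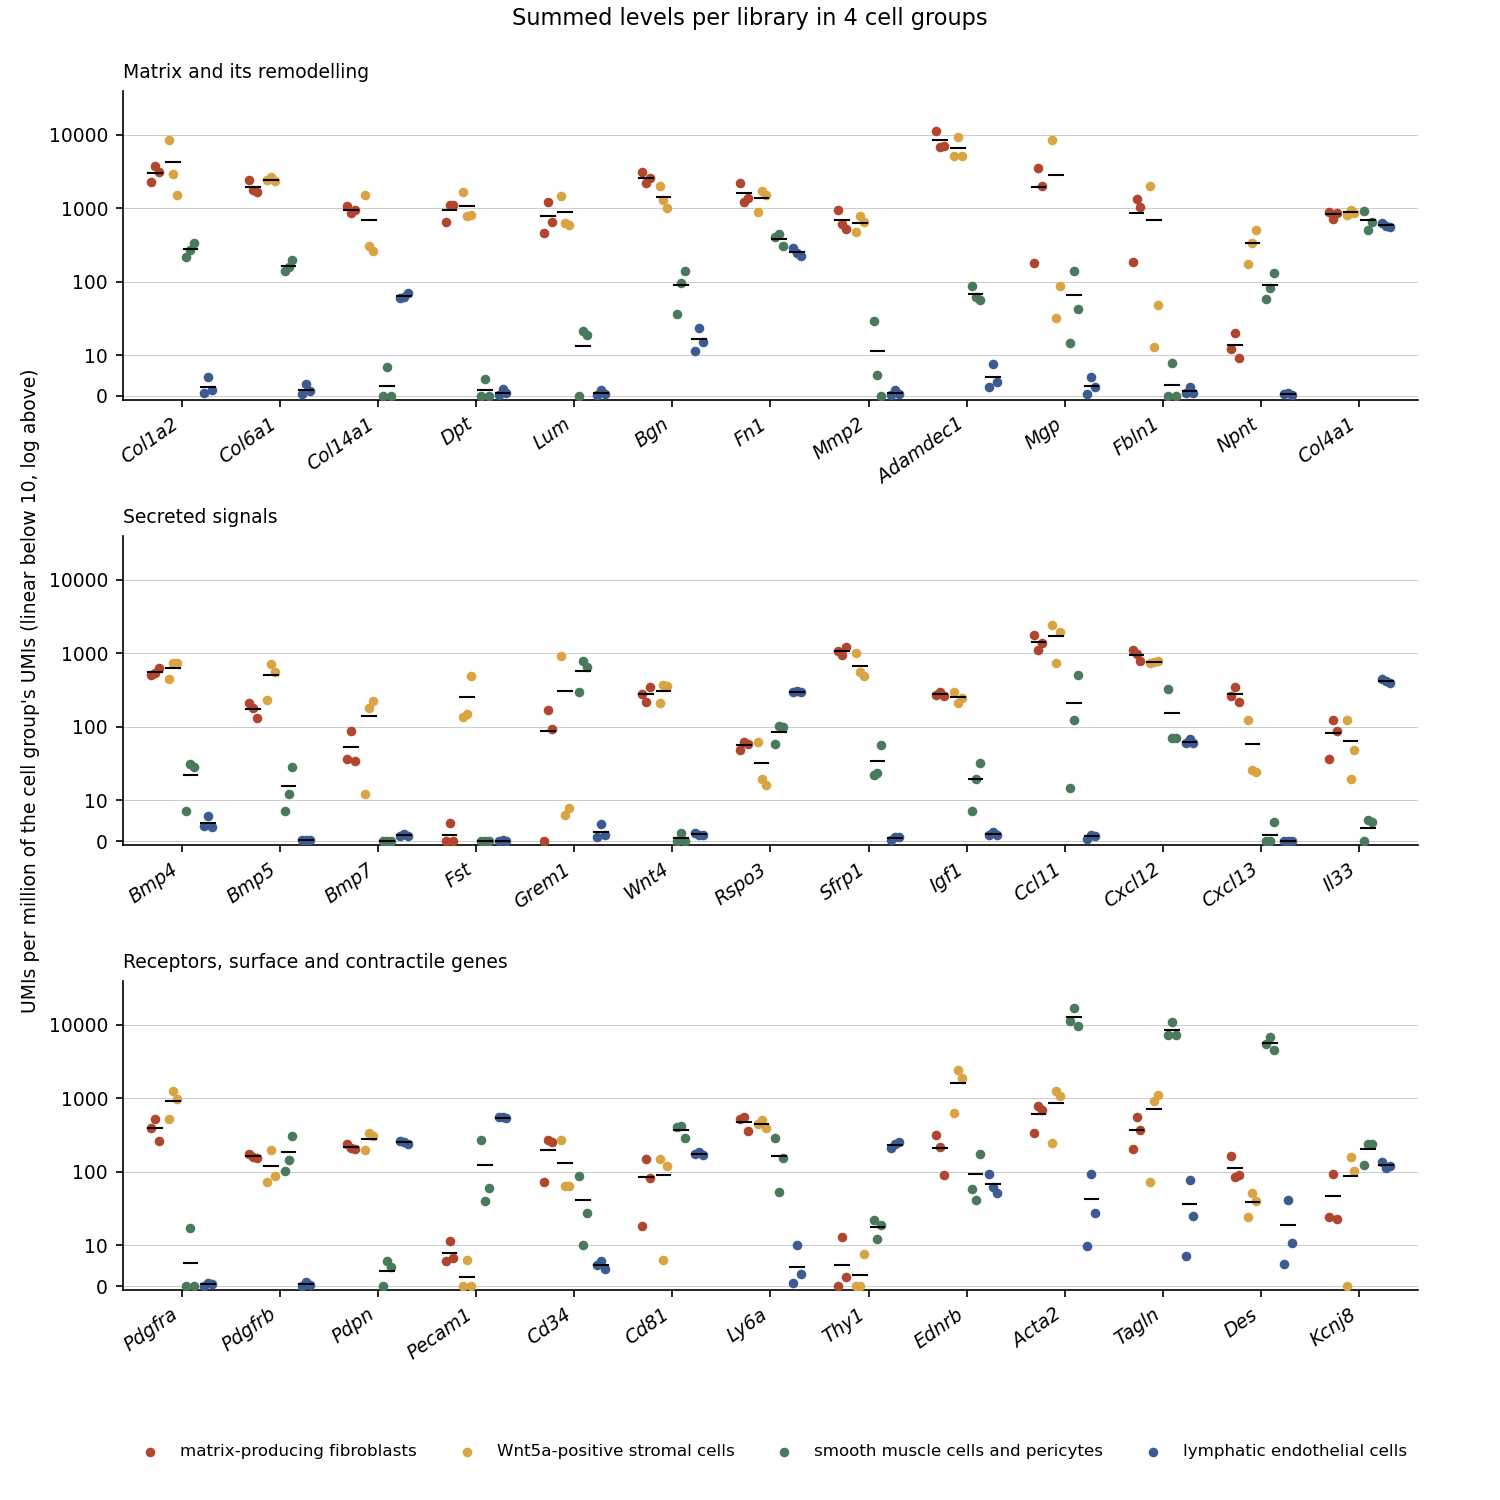
Level of 39 genes in 4 cell groups, in CPM of the group's summed UMIs on an axis that is linear below 10 and logarithmic above; each point is 1 of the 3 libraries and each bar their mean. Fibroblasts and Wnt5a-positive cells lie close for most matrix genes, smooth muscle cells and pericytes lead for Acta2, Tagln and Des, and Pdpn is near 0 in smooth muscle cells and pericytes.

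The fibroblasts were compared with 106 smooth muscle cells and pericytes of the same libraries (10, 72 and 24). These had at least 5 UMIs of Myh11 or Rgs5, no UMI of Prox1, Ptprc and Epcam, and fewer than 20 of the 3 matrix genes. The fibroblasts had more RNA of collagens and their processing enzymes, elastic fibre genes, chemokines, retinoid enzymes and complement, and less of contractile genes. UMIs were summed per library and group and tested with edgeR, with the library as a block. Of 4844 genes, 825 were higher in fibroblasts (17.0%) and 754 lower (15.6%) at a Benjamini-Hochberg adjusted p below 0.05. Because both groups were cut on matrix, muscle or pericyte genes, genes that go along with those can pass, and the calls describe the gated cells.

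Of the 12 fibrillar and associated collagens tested, 12 were higher, with a median log2 fold change of 3.45 against 0.01 over all genes tested. Col1a2 had 2286, 3774 and 3114 CPM in fibroblasts and 219.8, 270.7 and 335.1 in the mural cells. The groups did not overlap, and the log2 fold change was 3.42 ± 0.26 (approximate standard error, edgeR quasi-likelihood adjusted p = 1.36e-07). Col6a1 was 3.48 ± 0.29 higher on the log2 scale, Col6a2 4.30 ± 0.32, and Col14a1, a collagen on the surface of fibrils, 7.42 ± 0.51. Of 19 genes for folding, processing and crosslinking collagen, 17 were higher and none lower, with a median of 2.16. Serpinh1, the collagen chaperone, was 1.95 ± 0.26 higher.

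Elastic fibre and microfibril genes were higher in 13 of 13, with a median of 2.85. Mfap4, a microfibril protein, was 6.86 ± 0.50 higher, and Efemp1, a fibulin, had a ratio of 208 (counting interval 70.7 to 1009) over 3 mural UMIs. Proteoglycans were higher in 9 of 12 and lower in none. Lumican (Lum), which spaces collagen fibrils, was 5.67 ± 0.42 higher, and versican (Vcan) had a ratio of 140 (47.7 to 684) over 3 UMIs. Ogn, another small proteoglycan, was at 332.7, 692.9 and 264.5 against a mural mean of 401.6.

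Matricellular and remodelling genes were higher in 18 of 26 and lower in 3. Dpt, which binds decorin, had 653.3, 1094 and 1118 CPM in fibroblasts and 0, 4.07 and 0 in mural cells, 8.31 ± 0.51 higher on the log2 scale (edgeR quasi-likelihood adjusted p = 3e-08). Mmp2, a gelatinase, was 6.31 ± 0.49 higher and Adamdec1 6.83 ± 0.29. Mmp10 was at least 313-fold higher, computed against a floor of 3 UMIs over the mural cells, which held none. The protease inhibitor Timp3 was lower (log2 fold change -2.98 ± 0.39), and Sparcl1, a relative of Sparc, fell by 3.30 on the log2 scale, from 2155, 2101 and 2299 in mural cells to 211.7, 312.5 and 179.4 in fibroblasts.

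Basement membrane genes were split, 8 of 13 higher and 2 lower, with a median of 1.86. The laminin chain Lamb1 was 3.14 ± 0.33 higher. Lamb2 (-2.37 ± 0.32) and the integrin ligand Npnt (-2.67 ± 0.42) were lower. The type IV collagen chain Col4a2 was not called (log2 fold change -0.15 ± 0.27, edgeR quasi-likelihood adjusted p = 0.717), and Col4a1 had a mean of 689 in mural cells against 895, 723 and 867 in fibroblasts. So no difference was called for Col4a2, while Lamb1 and Lamb2 were called in opposite directions. A missed call does not show that levels are alike.

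BMP genes were higher in 6 of 9 and lower in 3. Bmp4 had 7.33, 31.6 and 27.9 CPM in mural cells, with no overlap with the fibroblasts, and was 4.37 ± 0.37 higher (edgeR quasi-likelihood adjusted p = 3.19e-07). Bmp7 was at least 27.9-fold higher. The antagonist Grem1 had 300.5, 774.5 and 646.9 in mural cells and was lower in fibroblasts (-2.93 ± 0.43). In these libraries the mural cells, not the fibroblasts, had the higher mean Grem1. The fibroblast mean was taken over all 151 cells, of which 18 had at least 2 Grem1 UMIs. It does not rank those 18 cells against the mural cells.

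WNT genes were higher in 3 of 5. Wnt4 had a ratio of 178 (48.9 to 1477) over 2 mural UMIs, and Sfrp1 was 5.00 ± 0.35 higher. Chemokines and cytokines were higher in 13 of 18 and lower in none, with a median of 2.58. Ccl11 had 14.7, 124.2 and 502.6 in mural cells, all below the fibroblasts, and was 3.05 ± 0.54 higher (edgeR quasi-likelihood adjusted p = 0.000355). Cxcl12 was 2.96 ± 0.38 higher, Cxcl16 5.29 ± 0.49 and the macrophage growth factor Csf1 2.68 ± 0.34. Cxcl13 had a ratio of 388 (69.3 to 15379) over 1 UMI.

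Growth factors and their binding proteins were higher in 12 of 20 and lower in 3. Igf1 was 3.69 ± 0.36 higher, the heparin-binding factor midkine (Mdk) 4.81 ± 0.45, and the EGF-family ligand Ereg had a ratio of 92.4 (25.2 to 769) over 2 UMIs. Pleiotrophin (Ptn), the other member of the midkine family, was lower (-3.96 ± 0.63). Of 32 receptors 16 were higher and 1, Cd81, was lower (-2.19 ± 0.39). Pdgfra was 5.33 ± 0.48 higher, whereas Pdgfrb, its paralogue on pericytes and fibroblasts, had 175.4, 160.6 and 156.4 against 102.6, 146.6 and 311.8, which overlap. Pdpn was 5.23 ± 0.43 higher, with 0, 6.11 and 4.65 in mural cells.

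Complement genes were higher in 8 of 11 and lower in 1. C4b was 5.02 ± 0.42 higher and the C1 inhibitor Serping1 3.53 ± 0.32, and factor B (Cfb) was at least 26.9-fold higher. The complement regulator Cd59a fell by 5.52 ± 0.48 on the log2 scale. Retinoid, lipid and prostanoid genes were higher in 15 of 18 and lower in 2, with Aldh1a3 5.46 ± 0.47 higher. Of 22 transcription factors 9 were higher and 5 lower: Tcf21 by 4.33 ± 0.38, Nkx2-3 by 1.49 ± 0.27 and, lower, Ebf1 (-3.44 ± 0.48). Zeb2 was 1.98 ± 0.35 higher and lost its call after thinning (edgeR quasi-likelihood adjusted p = 0.0514).

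Contractile genes were lower in 12 of 13, with a median log2 fold change of -4.57. Smooth muscle actin (Acta2) had 338.7, 776.8 and 696.8 CPM in fibroblasts and 11300, 16904 and 9815 in mural cells, a log2 fold change of -4.47 ± 0.29. Desmin (Des) had -5.76 ± 0.32 and tropomyosin Tpm2 -5.02 ± 0.36. Immediate early and stress genes were higher in 6 of 27 and lower in 4. The number of calls was 995 with DESeq2 in place of edgeR, 620 after thinning and 929 without library 2, which holds most of both groups.

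The comparison with 15828 lymphatic endothelial cells (5127, 3883 and 6818) set the fibroblasts against the cells the sort was made for. These had at least 2 Prox1 UMIs and 1 of Pecam1, none of Ptprc and Epcam, and fewer than 20 of the matrix genes. Fibroblasts had far more RNA of collagens, proteoglycans, BMP ligands, chemokines and growth factors. Lymphatic cells had more of Rspo3, Wnt2, Il33, Ccl21a and Timp3. Of 13027 genes, edgeR called 2157 higher in fibroblasts (16.6%) and 2572 lower (19.7%), and 3059 in all after thinning. Lymphatic markers, at 522 to 1008 CPM in the fibroblasts, move with the lower-called genes, and the part of lymphatic RNA in the fibroblasts' low values was not tested.

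All 14 BMP genes tested were higher in fibroblasts, with a median log2 fold change of 5.19 against -0.10 over all genes. Bmp4 had 3.64, 6.08 and 3.34 CPM in lymphatic cells and was 6.96 ± 0.21 higher (edgeR quasi-likelihood adjusted p = 5.86e-14). WNT genes divided: 6 of 10 were higher and 2 lower. Wnt4 was 7.37 ± 0.21 higher, Sfrp1 10.57 ± 0.28 and Wnt2b 8.46 ± 0.97. Wnt2 fell by 4.53 ± 0.40 on the log2 scale, with 0, 13 and 0 in fibroblasts and 154.6, 149.6 and 149.2 in lymphatic cells.

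Of the R-spondins Rspo1, Rspo2 and Rspo3, the last had the highest level in fibroblasts, and it was higher still in lymphatic cells. It had 48.4, 62.2 and 57.5 CPM in fibroblasts and 300.6, 304.5 and 296.3 in lymphatic cells. The groups did not overlap, and Rspo3 had a log2 fold change of -2.45 ± 0.18 (edgeR quasi-likelihood adjusted p = 7.94e-09). The alarmin Il33 had 36.3, 123 and 87.4 against 448.8, 420.9 and 398.1 (-2.29 ± 0.23).

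Chemokines and cytokines were higher in 18 of 28 and lower in 5. Ccl11 was 10.19 ± 0.31 higher, with 0.551, 1.58 and 1.34 CPM in lymphatic cells. Cxcl12 was 3.83 ± 0.15 higher, and the myeloid growth factors Csf1 and Il34 1.57 ± 0.17 and 8.43 ± 0.64 higher. Cxcl13 had a ratio of 12414 (4215 to 60466) over 3 lymphatic UMIs. The dendritic cell attractant Ccl21a was lower (-6.17 ± 0.27): its 90.7, 328.4 and 80.5 stood against 10268, 11734 and 9480. The scavenging receptor Ackr3 was lower too (-1.87 ± 0.18).

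Of 35 growth factors and binding proteins 22 were higher and 8 lower. Igf1 was 7.26 ± 0.18 higher, Igfbp7 4.93 ± 0.14, and the lymphangiogenic factor Vegfc 4.54 ± 0.64, at 12.1, 24.6 and 16.1 CPM. Lower were Gas6 (-2.17 ± 0.18), Tgfb1 (-2.50 ± 0.21), Tgfb2 (-1.32 ± 0.17) and Igfbp5 (-2.12 ± 0.21). Of 37 receptors 27 were higher, among them Pdgfra by 9.57 ± 0.32, and 6 were lower. Thy1, often used to mark fibroblasts, was lower (-5.05 ± 0.34), with 0, 13 and 2.3 in fibroblasts against 212.3, 236 and 256.5. Cd81 was lower (-0.98 ± 0.27), a call lost without the block (edgeR quasi-likelihood adjusted p = 0.0665). Pdpn did not pass (log2 fold change -0.31 ± 0.15, edgeR quasi-likelihood adjusted p = 0.111).

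Matrix lists were mostly higher, with collagens in 13 of 14, processing enzymes in 21 of 24, elastic fibre genes in 14 of 15 and proteoglycans in 10 of 13. Col1a2 was 10.63 ± 0.30 higher. The exceptions included Col23a1, a transmembrane collagen, lower with a log2 fold change of -3.98 ± 0.27, Prelp, a basement membrane anchor, with -2.29 ± 0.16, and Timp3 with -4.65 ± 0.25. Basement membrane genes were higher in 14 of 18 and lower in 4. Col4a1 (0.42 ± 0.13) and Lama4 (-0.54 ± 0.14) were called, but without library 3 their edgeR quasi-likelihood adjusted p was 0.297 and 0.0860, and DESeq2 did not call them either.

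Complement genes were higher in 13 of 17 and retinoid, lipid and prostanoid genes in 18 of 24. C3 was 4.13 ± 0.54 higher, but in 2 of 3 libraries. Of 33 transcription factors 17 were higher and 12 lower, among the latter Maf (-3.80 ± 0.17). Immediate early and stress genes were lower in 15 of 28 and higher in 5: Fos (-0.89 ± 0.19) and Atf3 (-1.98 ± 0.26) were lower, whereas the heat shock gene Hspa1a was 1.30 ± 0.15 higher.

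**Figure D2:**
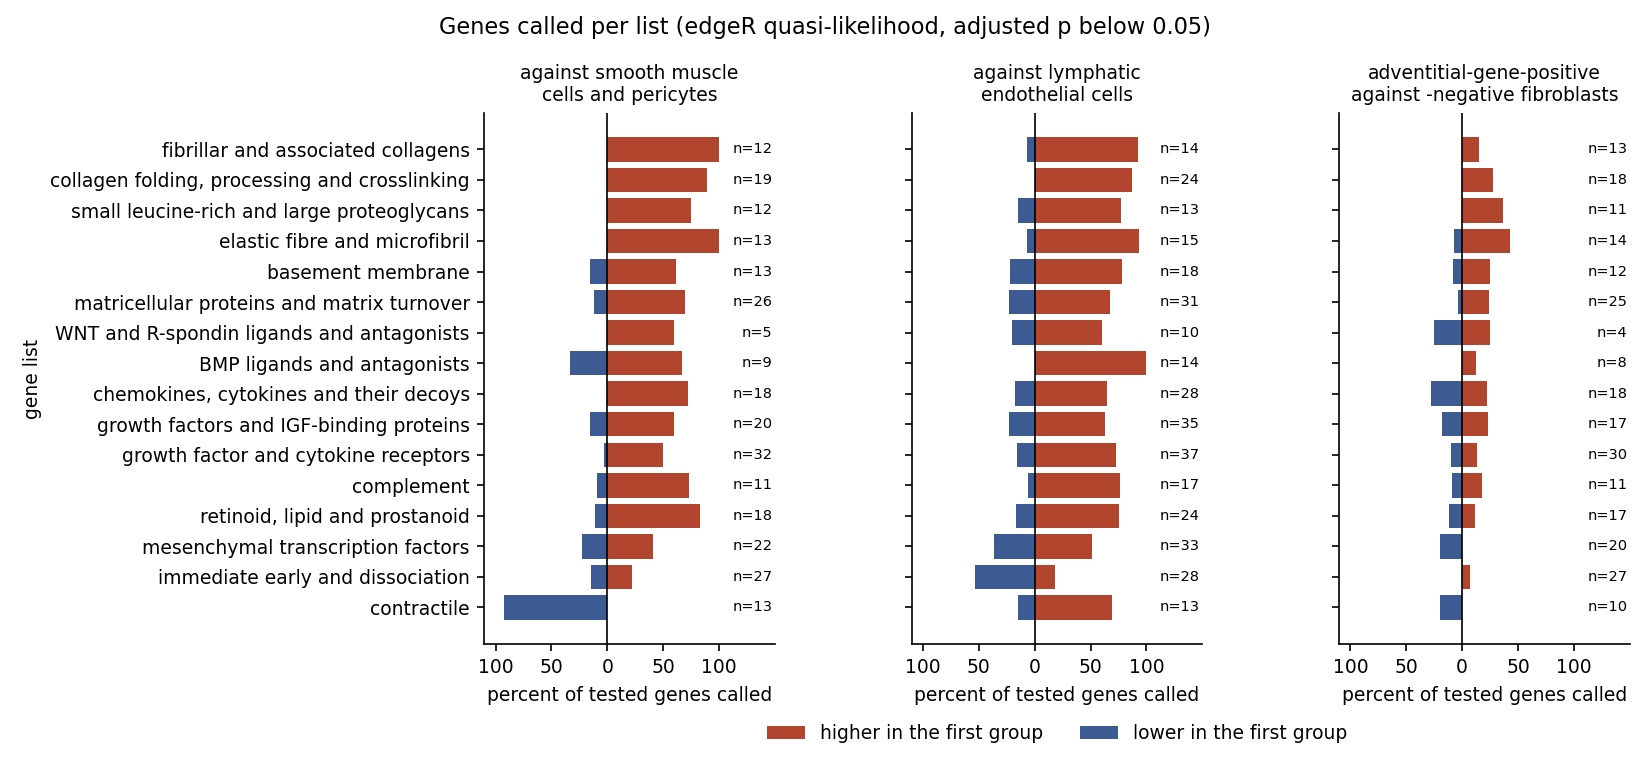
Percent of the tested genes of 16 lists called higher (right) or lower (left) in the first group of 3 comparisons by edgeR's quasi-likelihood test at an adjusted p below 0.05; n is the number of genes tested per list. Contractile genes were called lower against smooth muscle cells and pericytes in 12 of 13 and higher against lymphatic endothelial cells in 9 of 13.

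The comparison with 38 Wnt5a-positive, Pdgfra-positive stromal cells asked how the fibroblasts differ from the other Pdgfra-bearing stroma, which includes the subepithelial cells that instruct the crypt and villus. None of the 12 collagens tested was called, with a median log2 fold change of 0.19. Npnt, Fst and several BMP ligands had higher values in the Wnt5a-positive cells. These cells had at least 2 UMIs each of Wnt5a and Pdgfra, passed the same exclusions and had no limit on the matrix genes, and numbered 7, 17 and 14. The minimum of 8 cells per library set at the outset was not met in library 1, so the minimum was lowered to 5 after the cell numbers were seen.

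Of 2655 genes tested, edgeR called 0 higher in fibroblasts (0.00%) and 2 lower (0.0753%). At an unadjusted p below 0.05 there were 95 higher and 112 lower, and DESeq2 called 2 higher and 12 lower. Npnt, an integrin ligand of basement membranes, had 12.1, 20.3 and 9.20 CPM in fibroblasts and 172.3, 333.3 and 511.4 in Wnt5a-positive cells. The groups did not overlap, and the log2 fold change was -4.51 ± 0.43 (edgeR quasi-likelihood adjusted p = 0.0377). Npnt UMIs were in 1 of 18, 3 of 79 and 4 of 54 fibroblasts and in 1 of 7, 6 of 17 and 6 of 14 Wnt5a-positive cells. Fst, the activin and BMP antagonist follistatin, had 3 UMIs in all fibroblasts and 95 in the Wnt5a-positive cells, a ratio of 113 (37.5 to 557; edgeR quasi-likelihood adjusted p = 0.0423).

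Both calls rest on the libraries used. Without library 1 edgeR called 112 genes higher and 113 lower; without library 2, or without library 3, it called none, and Npnt and Fst had adjusted p up to 0.489 and 0.688. The log2 fold change of Npnt stayed at -5.08 and -3.93 in these 2 fits, which have 1 residual degree of freedom. Library 1 stood apart in the comparator: 3 of its 7 Wnt5a-positive cells held 298, 243 and 138 UMIs of Mgp, with 5, 54 and 15 of Grem1 and no Npnt. Mgp was at 8357, 32.1 and 87.9 CPM in the Wnt5a-positive cells and Fbln1 at 2031, 12.8 and 47.9.

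The remaining differences had large values without passing. Bmp2 had 66.5, 75.2 and 59.8 in fibroblasts and 172.3, 423.1 and 327.6 in Wnt5a-positive cells, with no overlap (log2 fold change -2.18 ± 0.30, edgeR quasi-likelihood adjusted p = 0.0857). The basement membrane collagen Col4a5 (-3.13 ± 0.42, adjusted p = 0.0850 by the same edgeR quasi-likelihood test) and the endothelin receptor Ednrb (-2.99 ± 0.60, 0.201) were also without overlap. Bmp5 (-1.49 ± 0.39) and the retinol carrier Rbp4 (-2.08 ± 0.58) had edgeR quasi-likelihood adjusted p of 0.269 and 0.288. Cxcl9, an interferon-induced chemokine, had 852.9, 289.3 and 338.1 against 0, 0 and 87.9 (4.06 ± 0.93, 0.216).

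Genes with like levels included Adamdec1, at 5096, 9346 and 5114 in the Wnt5a-positive cells (0.39 ± 0.26, edgeR quasi-likelihood adjusted p = 0.762), Bmp4 (-0.15 ± 0.23, 0.926) and Pdpn (-0.35 ± 0.28, 0.816). Of 16 lists, basement membrane had 1 of 13 genes called (Npnt), BMP genes had 1 of 9 (Fst) and the others had none. With 38 comparator cells these missed calls do not show that the populations are alike.

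Within the 151 fibroblasts, genes fell into groups that were seen in some cells and not in others. Cells were divided after their values were seen, by at least 2 UMIs of Mgp, Grem1, Kcnj8 or Itga8, so the sets are described and not tested. They were 18 cells with Mgp and Grem1 (0, 13 and 5 in the libraries), 27 with Mgp without Grem1 (1, 13 and 13), 19 with Kcnj8 (1, 15 and 3), 21 with Itga8 (3, 7 and 11) and 66 with none of the 3 genes Mgp, Kcnj8 and Itga8 (13, 31 and 22). The 4 cells that held both Mgp and Kcnj8 are counted in the Kcnj8 set. No cell had at least 2 UMIs of Itga8 together with as many of Mgp or Kcnj8. The exact binomial interval, which treats cells as independent, allows a share of up to 2.41% at 95%. With 19 Kcnj8 and 21 Itga8 cells, few cells with both would be met even for unrelated genes. Mgp had at least 2 UMIs in 49 cells, so more cells with both Mgp and Itga8 would be met for unrelated genes. Whether the genes exclude each other was not tested.

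**Figure D3:**
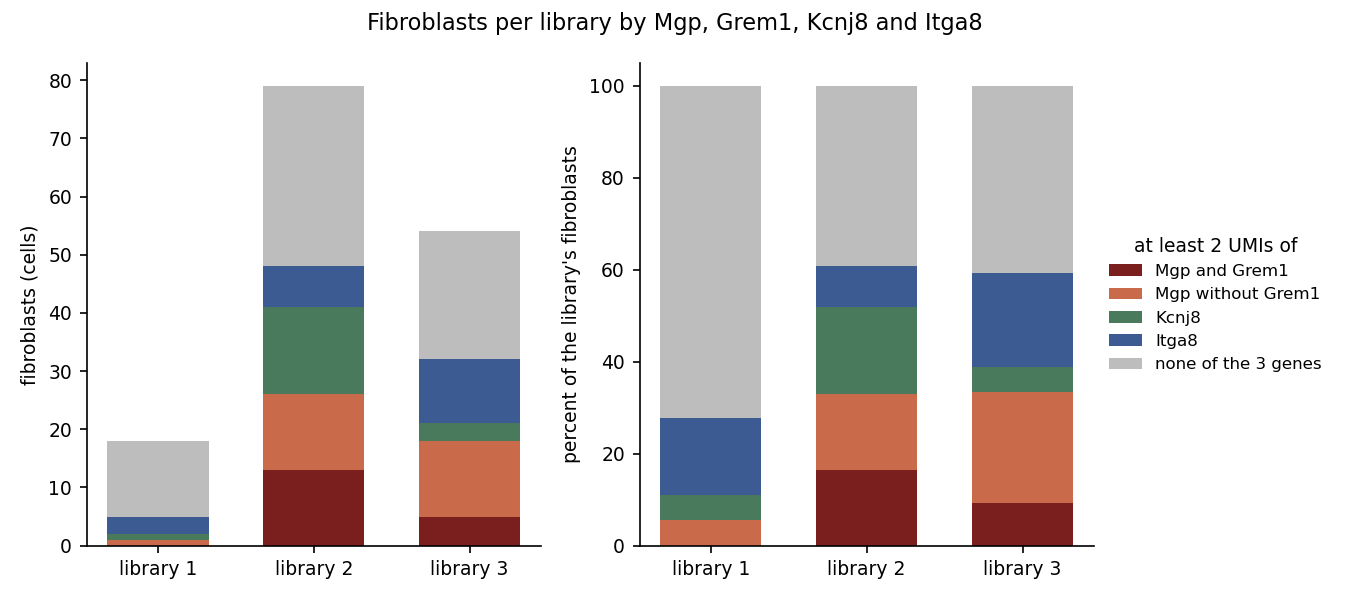
Number (left) and percent (right) of fibroblasts per library in 5 sets defined by at least 2 UMIs of Mgp with or without Grem1, of Kcnj8 or of Itga8. Library 1 has 1 cell with Mgp among 18, and 13 of its 18 cells fall in none of the sets.

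Cells with at least 2 Mgp UMIs were 1 of 18, 30 of 79 and 18 of 54, or 5.56% (0.141 to 27.3), 38.0% (27.3 to 49.6) and 33.3% (21.1 to 47.5). Library 1 had the lowest share, with an interval that just touches that of library 2 and overlaps that of library 3. The 3 cells of library 1 with Mgp that fell among the Wnt5a-positive cells are not counted in it. The 2 Mgp sets held 33.3% of the fibroblasts' UMIs and 57.8% of their UMIs of the 3 matrix genes. Cells with Mgp and Grem1 had a median of 427 matrix UMIs (240 to 793), or 4.62% of their RNA. Those with Mgp without Grem1 had 197 (38 to 445; 2.22%), against 98 (20 to 287; 1.29%) in cells of no set. The median depth of these 3 sets was 9878.5, 9992 and 8314.5 UMIs.

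The Mgp and Grem1 set had Mgp at 11092 CPM, with 21 to 328 UMIs per cell and a median of 78.5. Fbln1 was at 4278, Gsn at 8715, C3 at 2793, Cd34 at 704 and Cd81 at 575. The decoy chemokine receptor Ackr4 was at 247, and the matrix protein Cilp at 692, with a UMI in 17 of 18 cells. Adamdec1 was at 698, with a UMI in 7 of 18 cells, against 11204 in cells of no set, where 65 of 66 had a UMI. Wnt4, Bmp5, Bmp7 and Cxcl14 had no UMI in these cells. This set thus had the highest levels of the 3 matrix genes together with Grem1, and no UMI of those 4 signals.

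The Mgp set without Grem1 kept Adamdec1, at 6265 CPM with a UMI in 24 of 27 cells, beside Mgp at 5483, Fbln1 at 2059 and Gsn at 8573. In libraries 2 and 3 its Mgp was 7357 and 3929, against 11984 and 8713 in the set with Grem1. The adventitial gene Pi16 was at 416 in this set and 82.2 in the set with Grem1, and the microfibril gene Mfap5 at 604 and 317. At least 2 UMIs of Pi16 were in 10 cells, of which all 10 had at least 2 of Mgp and 4 had Grem1. So Pi16 and Grem1 marked overlapping parts of the Mgp-bearing cells.

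Across the 151 cells, the genes whose level followed Mgp most closely were Cd34 (Pearson 0.81), Fbln1 (0.79), Gsn (0.76), Pcolce2, an enhancer of procollagen processing (0.73), and Mfap5 (0.73). The lowest were the retinol dehydrogenase Rdh10 (-0.67) and Adamdec1 (-0.60). Adamdec1 in turn was lowest with Cd81 (-0.78), Cilp (-0.75) and Ackr4 (-0.72). These values describe cells that share library and depth.

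**Figure D4:**
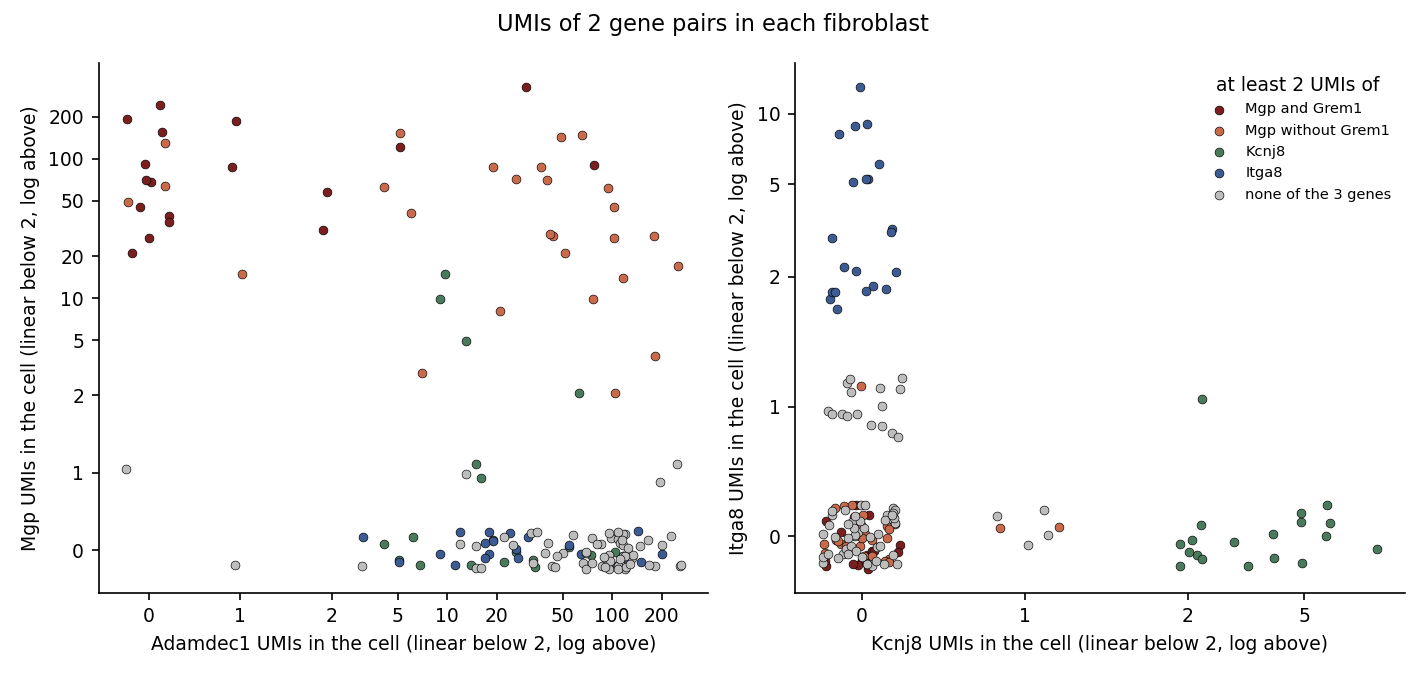
UMIs of Adamdec1 and Mgp (left) and of Kcnj8 and Itga8 (right) in each of 151 fibroblasts, on axes linear below 2 and logarithmic above, with points shifted slightly at random to part those that coincide; colours give the 5 sets, and cells with both Mgp and Kcnj8 are drawn as Kcnj8. Of the 18 cells with Mgp and Grem1, 7 have an Adamdec1 UMI and the others sit at 0, and no cell has at least 2 UMIs of both Kcnj8 and Itga8.

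The 19 Kcnj8 cells had at least 2 and at most 9 UMIs of this gene, which encodes the pore of an ATP-sensitive potassium channel. Its partner Abcc9, the regulatory subunit, had a UMI in 18 of 19 and was at 326 CPM against 0 to 11.7 in the other sets. Pdgfra was at 1772, with 5 to 22 UMIs in each of the 19 cells, against 156 to 323 in the other sets. Pdgfra was 1767 in library 2 and 1743 in library 3. Acta2 was at 2899 and Tagln, another contractile gene, at 2650. Mural cells of the same libraries had means of 12673 and 8527. Kcnj8, Abcc9 and Acta2 are also on the list of contractile and mural markers summed above. Of that list's 12 genes outside the rule, 4 had at most 3 UMIs in all fibroblasts together. The pericyte marker Higd1b had none. Cnn1, Notch3 and Mcam had 2, 2 and 1, against 2802, 233 and 218 in the mural cells. The rule itself limits Myh11 and Rgs5, and whether the set holds mural cells was not tested.

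The set also had more of some signals: Bmp7 at 412 (0 to 34.6 in the other sets), Bmp3 at 233 (0 to 14.3), Ogn at 2728 (5.77 to 593), the retinoic acid-forming Aldh1a1 at 1018 (23.5 to 156) and Rbp4 at 614 (0 to 38.5). Ednrb was at 700 and the CGRP co-receptor Ramp1 at 420. The matrix genes were low, at a median of 49 UMIs per cell (21 to 85), with Sfrp1 at 38.9 against 940 to 1426 elsewhere. Adamdec1 was present in all 19, at 4 to 104 UMIs. Of the Kcnj8 cells 15 came from library 2, and their median depth was 6281 UMIs.

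Ednrb, Rbp4, Bmp7 and Col4a5 had means of 1645, 380, 139 and 405 CPM in the Wnt5a-positive cells, and Col4a5 was at 389 in the Kcnj8 set. The Kcnj8 cells held at most 1 Wnt5a UMI by the rule. Npnt and Fst had no UMI in the Kcnj8 set. Without them edgeR called neither Npnt nor Fst against the Wnt5a-positive cells (adjusted p = 0.0813 for both), while the log2 fold change of Npnt was -4.36, close to the -4.51 with them.

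Kcnj8 and Abcc9 are neighbours on chromosome 6, 16247 bases apart and on the same strand, and their upstream sequences are shown because their transcripts were found in the same cells (Pearson 0.76). They are the 120 bases before the start of Kcnj8 (chr6:142571615-142571734, minus strand) and of Abcc9 (chr6:142702275-142702394, minus strand), from RefSeq on GRCm38.p6. Capitals mark GGGCGG, read here on the other strand, in Abcc9, and the Kcnj8 window held none of the 3 motifs on either strand. GENCODE vM21 starts Abcc9 at 142702315, within the window shown.
Kcnj8: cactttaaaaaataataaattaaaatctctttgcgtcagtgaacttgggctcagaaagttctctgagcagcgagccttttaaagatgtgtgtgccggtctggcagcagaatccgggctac
Abcc9: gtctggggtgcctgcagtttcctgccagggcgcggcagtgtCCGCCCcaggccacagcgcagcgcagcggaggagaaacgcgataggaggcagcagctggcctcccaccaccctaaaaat
GGGCGG on either strand was in 26.5% of the 32851 windows. The other genes closest to Kcnj8 across cells were Tmem158 (0.78), Bmp3 (0.75), Tspan13 (0.70), Tagln (0.69) and Bmp7 (0.68), and the lowest were Sfrp1 (-0.64), Col14a1 (-0.59) and Col3a1 (-0.57).

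The 21 Itga8 cells had 2 to 13 UMIs of this gene, the integrin chain that binds nephronectin. Plvap, known from the diaphragms of capillary endothelium, was at 421 CPM, with a UMI in 12 of 21 cells and in 10 of the other 130. Pecam1 had a UMI in 1 of the 21. The ATP-gated channel P2rx1 had a UMI in 19 of 21, at 421, against 0 to 132 in the other sets. Mgp and Abcc9 were at 0. Plvap here thus came with nearly no Pecam1.

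Secreted genes were also high in this set. Mmp10 was at 1932 (0 to 955 in the other sets), Cxcl14, a chemokine of epithelial borders, at 2070 (0 to 698), and Igfbp3 at 2376 (0 to 986). Protein S (Pros1), an anticoagulant, was at 1113, the adhesion molecule Vcam1 at 559, the growth factor receptor Fgfr2 at 686, complement C6 at 185 and Pdgfrb at 409. Igfbp3 was at 3109, 486 and 3696 in the libraries, and Cxcl14 at 2906, 1836 and 1951. In library 2 Igfbp3 was below its 774 in cells of no set, so its pooled excess did not hold there. Vcam1 in library 2 was 319 in the Itga8 set and 328 in cells of no set. Mmp10, Cxcl14, Pros1, Fgfr2, C6 and Pdgfrb were above cells of no set in each library. Library 1 gave 3 of the 21 cells. Genes closest to Itga8 across cells were Plvap (0.68), Adgrf5 (0.63), Cxcl14 (0.63), Tnfrsf21 (0.60) and C6 (0.60), and the lowest were Clec3b (-0.54), Hmcn2 (-0.53) and Dpt (-0.49).

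**Figure D5:**
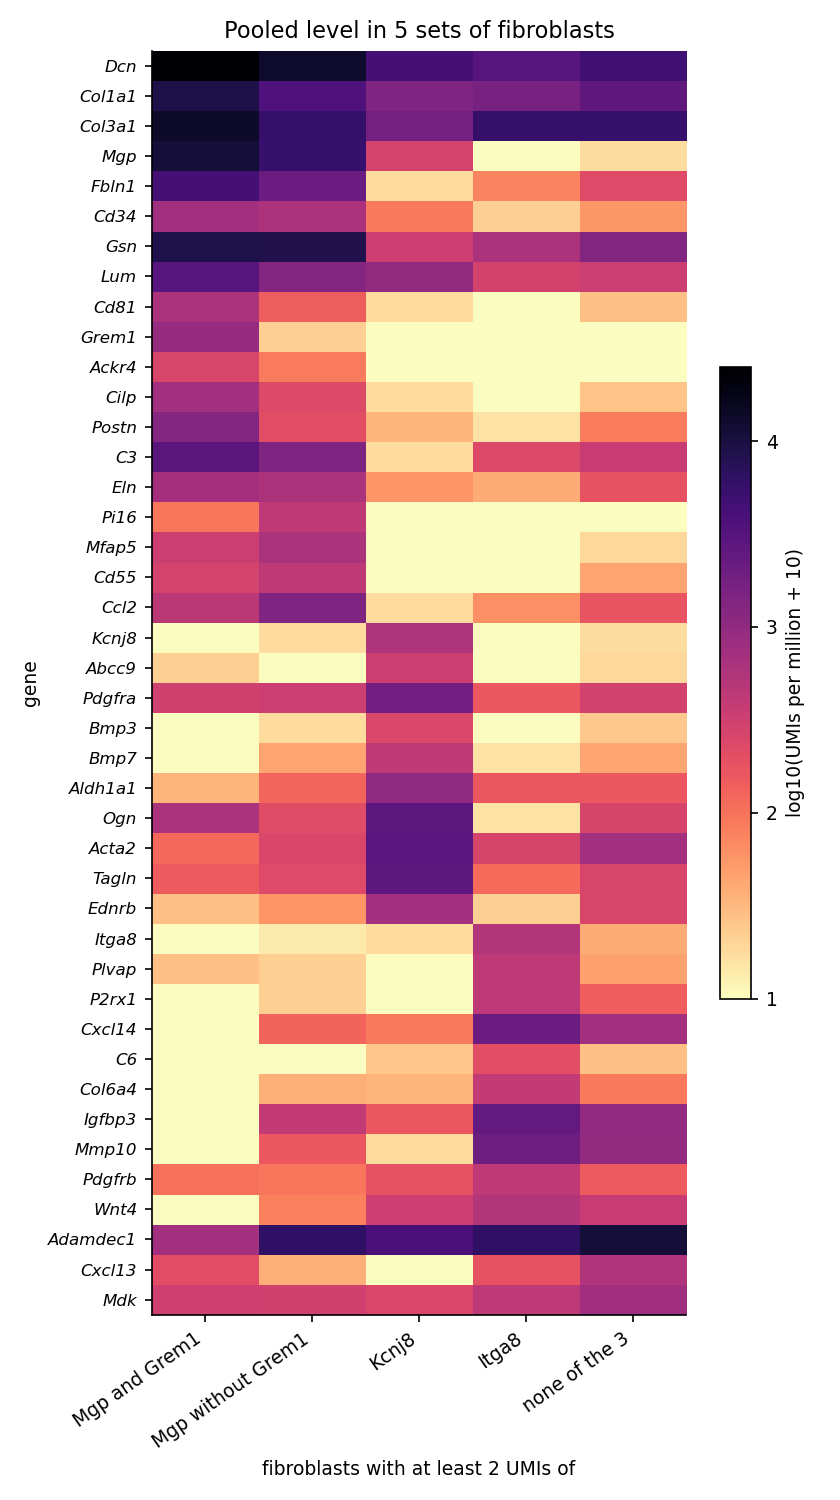
Pooled level of 42 genes in the 5 sets of fibroblasts, as log10 of 10 added to CPM, darker for higher. The genes were chosen after the values of these cells were seen and include those that define the sets. The blocks of genes that are darker in the Mgp, Kcnj8 and Itga8 sets therefore follow from that choice. Adamdec1 is lowest in cells with Mgp and Grem1.

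The 66 cells in none of these sets had the highest median Adamdec1 of the 5 sets, 95.5 UMIs per cell (0 to 260). At least 2 UMIs were in 64 of them, but such counts did not set them apart. They were also in 21 of 21 Itga8 cells, 19 of 19 Kcnj8 cells and 23 of 27 cells with Mgp without Grem1. Mgp was at 7.15 and Kcnj8 at 7.15 CPM. Cxcl13 was at 549, the highest of the 5 sets, and at 237 without 1 cell, described next, that held 177 of the set's 307 Cxcl13 UMIs. At least 2 UMIs of Cxcl13 were in 35 of the 151 fibroblasts (6, 15 and 14), and its closest gene across cells was Vcam1 (0.43). Ccl19, the other lymphoid chemokine, was at 6.90 to 12.1 CPM in the libraries, and Madcam1 had no UMI in any fibroblast.

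A few cells stood alone. Clu, the chaperone clusterin, had at least 2 UMIs in 4 cells, 3 of them in library 2. The first held 179 Clu UMIs, 76.2% of the fibroblasts' total, with 367 of Mfge8 (45.4%), a bridge for the uptake of dying cells, and 177 of Cxcl13 (47.1%). It had 9930 UMIs, 3 of Adamdec1 and none of Cr2, a receptor of follicular dendritic cells and B cells. Another cell had 37 of Clu and 89 of Mfge8. The mean Clu, Mfge8 and Cxcl13 of library 2 rest on the first cell. Cycling genes were found in 3 cells with at least 2 UMIs of Top2a, at 32, 21 and 14, and Mki67 at 29, 6 and 5. Those 3 held 18571, 19507 and 18817 UMIs, above the median of 8028.

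A list of 4 genes known from adventitial fibroblasts, Pi16, Clec3b, Dpp4 and Mfap5, divided the fibroblasts into 90 cells with at least 3 UMIs of them and 20 with none, in libraries 2 and 3 (55 and 35 against 11 and 9). Library 1 had 12 and 5 cells and did not enter, under the minimum of 8. Clec3b was found in 89 of the 90, Mfap5 in 33, Pi16 in 10 and Dpp4 in 2, so the division was mostly by Clec3b. Cells with these genes had more RNA of Gsn, Mgp and Fbln1 and of many matrix genes, and cells without them more of Plvap, Itga8, Pdgfrb and Cxcl14. The positive cells were deeper, with a median of 9139 against 6667.5 UMIs, and had a median of 169 against 51.5 UMIs of the 3 matrix genes. The part of depth in the calls was not tested beyond thinning.

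Of 3205 genes edgeR called 108 higher in the positive cells (3.37%) and 66 lower (2.06%). With 2 libraries the block leaves 1 residual degree of freedom and the spread was taken wholly from the trend over genes, so the size of these p-values should not be leaned on: DESeq2 called 13 genes, and without the cells with at least 2 Kcnj8 UMIs edgeR called 3, which were Mgp, Gsn and Plvap. With library 1 let in at a minimum of 5 cells edgeR called 41, without cells with an endothelial UMI 78, and after thinning 96.

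Gsn had 4859 and 5135 CPM in the positive cells and 424 and 355 in the negative cells, 3.72 ± 0.27 higher on the log2 scale. Over 11 alternative settings it kept its call, with log2 fold changes of 3.06 to 4.01 and an edgeR or DESeq2 adjusted p of at most 0.00745. Plvap had 9.30 and 12.9 against 206 and 473 (-4.73 ± 0.54), also kept in 11 of 11 (adjusted p at most 0.0431). Mgp had 3320 UMIs against 0, at least 179-fold higher, and lost its call under DESeq2 (adjusted p = 0.373). Fbln1 had 1335 against 3 UMIs, a ratio of 72.0 (24.6 to 349). Itga8 had 29.8 and 29.1 against 231 and 507 (-3.46 ± 0.45) and kept its call in 10 of 11.

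Matrix lists gave elastic fibre genes higher in 6 of 14 and lower in 1, processing enzymes higher in 5 of 18, proteoglycans in 4 of 11 and collagens in 2 of 13. Mfap4 was 4.37 ± 0.53 higher, Dpt 2.95 ± 0.38, Lum 2.91 ± 0.40 and Col1a2 1.35 ± 0.24, and these kept their calls in 10, 10, 8 and 9 of 11 alternatives. Elastin (Eln) had a ratio of 52.4 (9.34 to 2076) over 1 UMI. Cd34 was at least 15.7-fold higher and Grem1 at least 8.46-fold. Chemokines were higher in 4 of 18 and lower in 5, with Ccl11 1.31 ± 0.32 higher (call kept in 7 of 11 alternatives), and Cxcl9 (-3.09 ± 0.40) and Cxcl14 (-2.01 ± 0.33) lower. With library 1 let in, Cxcl9 was at -1.41 ± 1.64 and lost its call (edgeR quasi-likelihood adjusted p = 0.700), while Cxcl14 kept its call in 10 of 11. Of 20 transcription factors 4 were lower, among them Runx1 (-2.18), which kept its call in 9 of 11 alternatives, Runx2 (-2.05), in 5 of 10, and Tbx3 (-1.82), in 1 of 9.

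Several of these genes follow the make-up of the 2 groups. Cells with at least 2 UMIs of Itga8 were 5 of 90 positive and 10 of 20 negative cells, and those with Mgp 47 of 90 and 0 of 20. Cells with Clu were 0 of 90 and 3 of 20. Without the Clu cells Mfge8 lost its call and Cxcl13, at -2.47 with them, turned to a log2 fold change of 1.07. Adamdec1 was not called, at 6495 and 7260 against 5193 and 4410 (0.56 ± 0.19, edgeR quasi-likelihood adjusted p = 0.0512). A comparison of Grem1-positive with Grem1-negative fibroblasts was planned, but 1 library had 8 or more cells in each group, so their levels are given above without a test.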

How the data were processed

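The deposited values are UMI counts, whole numbers for each gene in each barcode of 10x 3′ v3 libraries. The authors made them with Cell Ranger 6.1.2, and the submitters' processing notes also name bcl2fastq 2.2 and the mm10 build. The count values were used as deposited, and 78 symbols with more than 1 gene ID were summed. A barcode needed at least 500 genes and no more than 15% of its UMIs from mitochondria. The members, gene lists and comparisons were chosen with earlier results of these data known, so list counts are descriptions.

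Sums of UMIs over each cell group of a library entered glmQLFit and glmQLFTest of edgeR 4.0.16 (R 4.3.3) after filterByExpr and TMM, with Benjamini-Hochberg adjustment over all genes tested after the genes of either gate were removed. Standard errors are the fold change divided by the root of F. Library was the block, because the 2 sums compared share 1 pool of animals and 1 run. Whether libraries share animals is not stated in the labels. P-values measure only the spread between these libraries, which may be technical. Libraries entered with at least 8 cells per group. This was lowered to 5 for the Wnt5a comparison after cell numbers were seen. The code was tested on simulated data.

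Named genes were called, changed the same way in every library and had at least 20 CPM in the higher group. The largest per list and direction and the 6 largest outside the lists were eligible, beside a list of genes always named. Sets by Mgp, Grem1, Kcnj8, Itga8 and Clu, and the single genes given for them, were chosen after values were seen. Folds against 0 UMIs use a floor of 3 UMIs over the group. Ratios on 1 to 3 UMIs carry a 95% counting interval. Correlations across cells use the natural log of 1 plus UMIs scaled to 10000 per cell, over genes in at least 10% of fibroblasts.

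Scrublet (scanpy 1.11.5) called 1, 5 and 1 cells as doublets, so few that the caller had not worked, and no cell was removed. Removing the highest-scoring cells at the expected rate dropped 0, 4 and 2 fibroblasts. Alternatives were DESeq2 1.42.0, no filter, no block, thinning to 3000 UMIs, other limits on cells and leaving out each library.

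Some results are not reported here.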

Additional observations from a re-analysis of the deposited data

How the results depend on the processing

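The fibroblast share of analysed cells, 0.677% on average with an SD of 0.457, was 0.589% to 0.746% under other limits on cells and matrix UMIs. With 1 library left out it was 0.427% to 0.874%. Leaving out 1 of 3 libraries cannot move the mean by as much as their SD, so staying within that spread is no test. Against Wnt5a-positive cells, edgeR's 2 calls became 14 with no replicate block, 147 with no filter on low counts, 14 with DESeq2, 6 without fibroblasts with an endothelial UMI, and 0 after thinning, with a matrix minimum of 40 UMIs or without Kcnj8 cells; leaving out 1 library gave 0 to 225. Against smooth muscle cells and pericytes, 1579 calls became 995 with DESeq2 and 620 after thinning, and 929 to 1952 with 1 library left out. Against lymphatic endothelial cells, 4729 calls became 3059 after thinning, and 3584 to 4707 with 1 library left out. Within the fibroblasts, 174 calls became 13 with DESeq2, 96 after thinning, 78 without cells with an endothelial UMI, 3 without Kcnj8 cells and 41 with library 1 let in. Thinning and left-out libraries test on fewer UMIs or samples; for the others the cause was not tested. Without the replicate block there were 1653, 5342 and 129 calls in the last 3 comparisons. The Kcnj8, Clu and library 1 alternatives were chosen after seeing the data.

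Of single named genes, 1 reversed: Cxcl13 in the adventitial comparison, to a log2 fold change of 1.07 without the cells with at least 2 Clu UMIs. The adventitial comparison could not be run without library 2, without library 3 or with a matrix minimum of 40 UMIs, since 1 library then remained. Library 1 was not in it, so leaving that library out changes nothing. With 151 fibroblasts, genes read in few cells rest on few molecules.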
